A study of Mus musculus with 18 samples.

Results

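The 55 genes described here belong to 2 sets that carry a cell through its division: 29 genes of DNA replication and 26 genes of mitosis. They are listed rows of a table of 23899 mouse genes, and each had a mean of at least 1 FPKM (fragment counts scaled to transcript length and library size) over the 18 libraries, a level that 11550 genes reached. All 55 members passed that filter. Mean levels of the replication members ran from 18.3 FPKM for Ccne1 to 396 FPKM for Pcna, with a median of 57.1. Those of the mitotic members ran from 8.60 FPKM for Cenpf to 257 FPKM for Top2a, with a median of 50.8.

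The study sequenced poly(A) RNA of mouse leukemia cells driven by MLL-AF9, a fusion of the histone methyltransferase MLL with AF9, which turns myeloid progenitors leukemic. Cells in 5 of the 6 groups carried a single guide RNA: 4 guides (e12.3 and e12.4, and also e20.1 with e21.1) cut Jmjd1c, which encodes a protein with a jumonji domain of the histone demethylase class, and Renilla is a control guide against a luciferase that mouse cells lack. The sixth group is labelled mock. Every group shared the same MLL-AF9 Cas9 cells and a culture medium with interleukin-3, and had 3 libraries. The labels do not say which guide cuts the jumonji domain and which the zinc finger domain, what the mock cells received, or whether replicates were separate cultures, so the p-values below measure only the spread between these libraries.

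In G1, the origin recognition complex, Cdc6 and Cdt1 load the MCM helicase onto origins; Cdc45 and the GINS complex then turn it into the moving helicase, and the polymerases, their clamp Pcna and the clamp loader RFC follow. Cyclin E and E2F transcription factors drive entry into S phase. In mitosis, cyclin B with Cdk1, Plk1 and the Aurora kinases build the spindle, the checkpoint kinases watch the kinetochores, and the anaphase-promoting complex with Cdc20 and Ube2c ends the phase by marking cyclin B for destruction. As a rule, replication genes are most abundant around the start of S phase and carry E2F sites in their promoters, while mitotic genes peak in G2 and M and are repressed through CHR elements bound by the DREAM complex and, later, activated there with B-Myb and Foxm1.

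The promoters below are shown because the sets differ in these letters and because the mitotic members shown are among those described further on. Sequences are those of RefSeq on GRCm38.p6, from 250 bases before to 50 after an annotated start, 5′ to 3′ on the gene's strand. The table held 24 of 29 replication members and 21 of 26 mitotic members. Ccne2, Gins1, Gins2, Mcm4, Pole, Aurkb, Ccna2, Cdc25c, Kif20a and Tpx2 had no entry. Capitals mark matches, on either strand, of an E2F motif (TTTCCCGC, TTTCGCGC, TTTGCCGC or TTTGGCGC), a CHR motif (TTTGAA or TTCGAA) or CCAAT. Cdc20, at chr4:118437294-118437593 on the minus strand, held 1 CHR and 2 CCAAT matches. Plk1, at chr7:122159185-122159484 on the plus strand, held 1 CHR and 1 CCAAT match. Ube2c, at chr2:164769679-164769978 on the plus strand, held 1 CHR and 6 CCAAT matches, 2 of which overlap on opposite strands. Mcm6, a helicase subunit, at chr1:128359656-128359955 on the minus strand, held 3 E2F matches, 2 of which overlap, and 2 CCAAT matches. Ccne1, at chr7:38107441-38107740 on the minus strand, held none of these letters.
Cdc20: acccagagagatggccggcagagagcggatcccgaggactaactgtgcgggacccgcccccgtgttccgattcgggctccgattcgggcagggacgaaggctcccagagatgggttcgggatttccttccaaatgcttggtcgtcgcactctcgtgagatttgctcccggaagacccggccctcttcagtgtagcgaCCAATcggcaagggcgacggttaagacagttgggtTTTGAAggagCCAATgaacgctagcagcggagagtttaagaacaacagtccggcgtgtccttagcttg
Plk1: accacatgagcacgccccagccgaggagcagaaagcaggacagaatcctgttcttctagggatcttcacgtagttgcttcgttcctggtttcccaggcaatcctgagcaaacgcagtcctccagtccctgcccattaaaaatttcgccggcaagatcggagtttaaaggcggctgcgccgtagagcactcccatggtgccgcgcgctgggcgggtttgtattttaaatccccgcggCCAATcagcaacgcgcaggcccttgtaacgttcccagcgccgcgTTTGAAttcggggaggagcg
Ube2c: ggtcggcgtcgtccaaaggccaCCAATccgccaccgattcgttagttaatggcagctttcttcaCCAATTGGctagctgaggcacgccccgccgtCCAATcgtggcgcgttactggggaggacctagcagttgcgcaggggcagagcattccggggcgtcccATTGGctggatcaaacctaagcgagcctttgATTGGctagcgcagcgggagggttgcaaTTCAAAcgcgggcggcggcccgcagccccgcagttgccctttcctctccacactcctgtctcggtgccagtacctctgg
Mcm6: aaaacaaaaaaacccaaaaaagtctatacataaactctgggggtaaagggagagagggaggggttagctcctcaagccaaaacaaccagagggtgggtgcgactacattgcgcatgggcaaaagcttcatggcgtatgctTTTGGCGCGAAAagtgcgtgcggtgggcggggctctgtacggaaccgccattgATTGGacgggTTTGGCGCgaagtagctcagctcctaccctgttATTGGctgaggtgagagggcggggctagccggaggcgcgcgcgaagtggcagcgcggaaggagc
Ccne1: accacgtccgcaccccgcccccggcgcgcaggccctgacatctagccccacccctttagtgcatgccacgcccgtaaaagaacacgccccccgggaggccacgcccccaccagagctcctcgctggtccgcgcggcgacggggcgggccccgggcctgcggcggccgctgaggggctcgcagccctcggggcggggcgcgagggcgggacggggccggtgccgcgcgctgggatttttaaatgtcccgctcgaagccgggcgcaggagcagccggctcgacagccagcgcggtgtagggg

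An E2F match stood in the promoters of 11 of 24 replication members (45.8%) and of 1 of 21 mitotic members (4.76%), that of Cdk1, against 2.61% of the 27025 genes in the promoter table. The E2F matches fell in Mcm3, Mcm5, Mcm6 and Mcm7 of the helicase, in Cdc6 and Cdt1, which load it, and in Rfc3, Lig1, Pold1, Pola1 and Uhrf1. CHR matches showed the reverse: 17 of 21 mitotic members (81.0%) and 5 of 24 replication members (20.8%) had one, against 21.7% of all genes. CCAAT was found in 18 of 21 mitotic (85.7%) and 14 of 24 replication members (58.3%), against 41.1% of all genes. Other mitotic genes listed for comparison had a CHR match in 31 of 44 promoters (70.5%), and other replication genes an E2F match in 9 of 32 (28.1%). These are matches of letters, not measured binding.

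Depth, read from the step between low FPKM values, was about 20.8 to 182 M reads a library with a median of 32.1 M reads, so that 1 FPKM of a transcript of 2000 bases stood for 41.6 to 365 reads. Jmjd1c itself differed by -0.29 (SE 0.13; limma-trend adjusted p = 0.19) between the 4 guides and Renilla on the log2(FPKM + 1) scale; its summed transcript level does not show whether its DNA was cut. Summed FPKM of the monocyte markers (such as Csf1r and Ctss) was 272 to 296 in the 6 control libraries and 511 to 729 in 10 guide libraries, and that of primary granule markers (such as Mpo and Elane) was 4601 to 5515 and 1824 to 3230. Erythroid, lymphoid and stromal markers summed to at most 5.34 FPKM in any library, and the progenitor markers, Myb and Kit among them, to between 723 and 988. The other 2 guide libraries, replicate 3 of both e12.3 and e21.1, had 389 and 619 FPKM of monocyte markers and 5144 and 3926 of granule markers. Both also stood apart in the genes described here, and the counts and the members called are given with all 18 libraries and again with these 2 left out. The pair was singled out with earlier results of these data known, some of them on cell-cycle genes, so the second set of values is conditional on that choice.

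**Figure D1:**
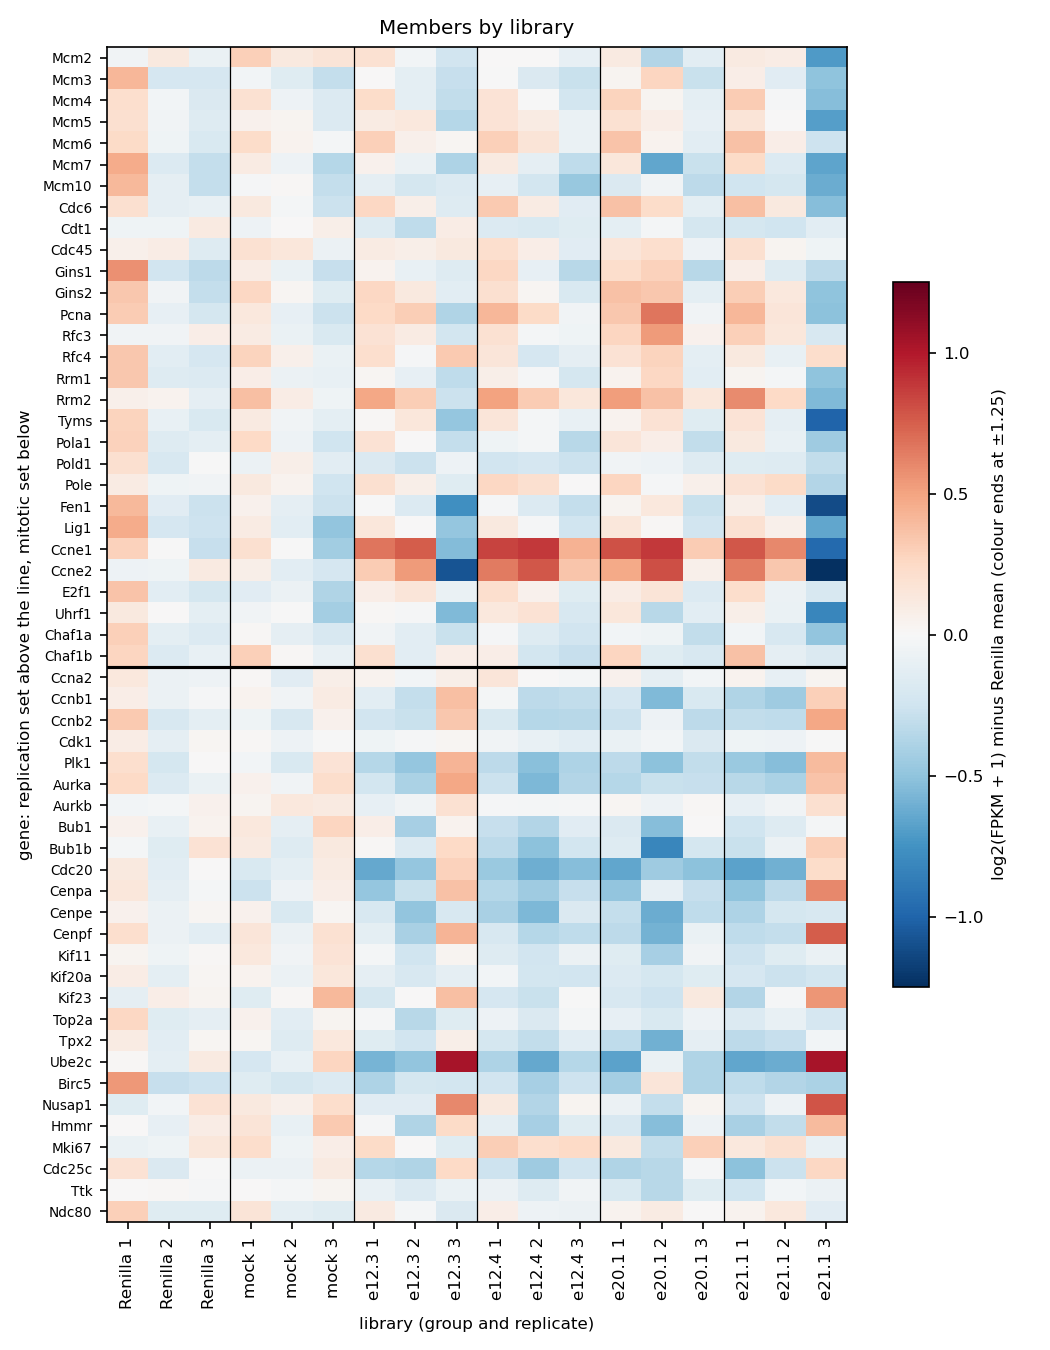
Each row is 1 of the 55 members and each column 1 of the 18 libraries; colour gives log2(FPKM + 1) minus the Renilla mean, with the 29 replication members above the line and the 26 mitotic members below it. The last column of e12.3 and that of e21.1 are mostly blue in the upper block and red for members such as Ube2c in the lower one, and the other 10 guide libraries are mostly blue in the lower block.

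With all 18 libraries, replication genes as a set had a median difference near 0 and mitotic genes one below 0. A gene was called where the limma-trend fit to all 11550 genes gave a Benjamini-Hochberg adjusted p under 0.05, and differences are on the log2(FPKM + 1) scale. For the 4 guides together against Renilla, 0 of 29 replication members were higher and 0 lower, with 1 at an unadjusted p under 0.05; 17 of 29 lay below 0 and the median was -0.03, as over all genes (-0.03). Of the 26 mitotic members 0 were higher and 1, Cenpe, was lower, with 5 at an unadjusted p under 0.05; 22 of 26 lay below 0 and the median was -0.17. Of all genes tested, 7.77% were called higher and 3.21% lower, so 1 call lower in 26 is near the background. An unadjusted limma-trend p under 0.05 was reached by 2816 of the 11550 genes, a larger share than in either set. Of the 11550 genes, 6367 lay below 0. Against mock, limma-trend called 0 members of either set (0 replication and 6 mitotic members at an unadjusted p under 0.05), while 6.84% of all genes were higher and 2.16% lower; the medians were 0.00 and -0.21, and 23 of 26 mitotic members lay below 0. Over all 11550 genes against mock, 2455 had an unadjusted limma-trend p under 0.05 and 6218 lay below 0. Mock against Renilla called 0 of all genes (0%) and 0 members, and the mitotic median was 0.00. There, 0 members and 127 of the 11550 genes had an unadjusted p under 0.05. These 2 comparisons of the guides share the guide libraries. In bulk RNA, fewer cells in a phase and less of a transcript per cell cannot be told apart.

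Cenpe encodes a kinetochore motor that carries chromosomes to the spindle equator (GENCODE, GRCm38: chr3:135212537-135273611, plus strand). In Renilla the 3 libraries had 25.8, 23.6 and 25.3 FPKM of Cenpe and in mock 25.9, 21.8 and 25.4; the guide libraries had 21.5, 17.4 and 21.6 for e12.3, 18.6, 16.5 and 21.8 for e12.4, 20.05, 15.8 and 19.8 for e20.1 and 18.8, 21.3 and 21.5 for e21.1. All 12 guide libraries lay below the lowest Renilla library, and e12.4 replicate 3 reached the lowest mock library. Cenpe fell by 0.34 against Renilla (SE 0.10; limma-trend adjusted p = 0.0326), but without any single one of the 3 Renilla libraries it was not called, leaving 0 members called. Against mock it differed by -0.31 (SE 0.10; limma-trend adjusted p = 0.0626). For Cenpe the 2 libraries that stood apart lay with the other guide libraries.

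In the fit to all 6 groups, no single guide called a member when all libraries were used. The limma-trend counts against Renilla were 0 of 55 for each of the 4 guides; in the order e12.3, e12.4, e20.1, e21.1, which holds for all such series of values below, 3.20%, 7.09%, 5.68% and 9.51% of all genes were called in either direction. At an unadjusted p under 0.05 there were 1, 3, 6 and 4 members. Of the 11550 genes there were 1541, 2312, 2076 and 2657, a larger share for each guide. Against mock the counts were again 0 of 55 for each, where 2.94%, 6.48%, 5.32% and 7.26% of all genes were called. There, 2, 5, 8 and 2 members had an unadjusted p under 0.05, beside 1236, 2099, 2004 and 2224 of the 11550 genes. These too were larger shares than those of the members. Leaving out e12.4 replicate 3 alone brought Cenpe past the threshold for e12.4 against Renilla. Fitted on the groups compared alone, e12.4 called 3 members against Renilla and 8 against mock. The median of the mitotic members against Renilla was -0.05 for e12.3, -0.23 for e12.4, -0.23 for e20.1 and -0.11 for e21.1; the values nearer to 0 were those of the guides whose replicate 3 stood apart.

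In those 2 libraries the sets lay in opposite directions. In e12.3 replicate 3, 23 of 29 replication members lay below both other e12.3 libraries, with a median of -0.33 against their mean and the lowest, Ccne2, at -1.51. In e21.1 replicate 3 the count was 27 of 29, the median -0.58 and Ccne2 at -1.83. The count alone was not particular to the pair. In replicate 3 of Renilla, mock, e12.4 and e20.1 it was 20, 27, 27 and 25 of 29. The medians there were -0.26, -0.25, -0.29 and -0.30, near that of e12.3. Of the mitotic members, 20 and 19 of 26 lay above both other libraries of their guide, with medians of 0.30 and 0.37, and Ube2c was highest at 1.57 and 1.67. In replicate 3 of Renilla, mock, e12.4 and e20.1 the mitotic count was 6, 19, 12 and 14 of 26. The mitotic medians there were 0.02, 0.15, 0.07 and 0.12, and the highest single members 0.28, 0.48, 0.30 and 0.39. Against the 16 libraries outside the pair, 11 and 23 replication members were lower than in any, and 12 and 14 mitotic members were higher than in any. The mitotic members higher than in any other library were Ccnb1, Ccnb2, Plk1, Aurka, Aurkb, Cdc20, Ube2c, Cenpa, Cenpf, Nusap1, Bub1b and Cdc25c in both, whereas Ndc80, Top2a, Mki67 and Ttk were not among them. Depth also set the pair apart: it was 67.1 and 75.5 M reads, where mock replicate 1 alone was deeper (182 M reads) and the other 15 libraries had 20.8 to 43.5 M reads. The granule marker sum of e12.3 replicate 3 was within that of the controls. The part of depth and of these markers in the values was not tested.

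**Figure D2:**
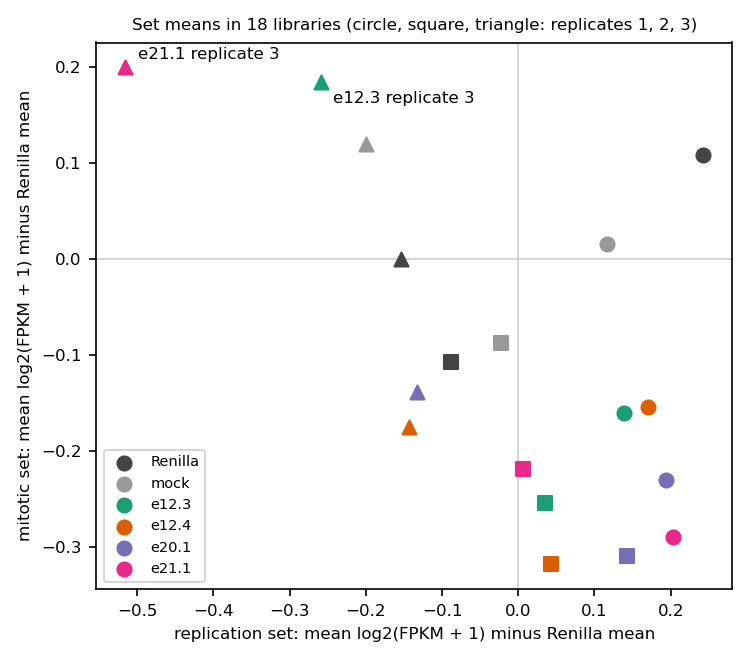
Each point is a library, placed by the mean over the 29 replication members (x) and the 26 mitotic members (y) of log2(FPKM + 1) minus the Renilla mean; colour is the group and shape the replicate. The 10 guide libraries lie at -0.32 to -0.14 on the mitotic axis, below the 6 control libraries at -0.11 to 0.12, and the 2 labelled libraries lie at 0.18 and 0.20.

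As set means, the replication members lay at -0.20 to 0.24 in the 6 control libraries, -0.14 to 0.20 in 10 guide libraries, -0.26 and -0.52 in the pair that stood apart. The mitotic members lay at -0.11 to 0.12 in the controls and -0.32 to -0.14 in the 10 guide libraries, without overlap, and at 0.18 and 0.20 in the other 2. Members of a set moved together between replicates: over deviations from the group means in 18 libraries, where genes of a library share its depth, the median Pearson r was 0.75 for pairs of replication members, 0.50 for pairs of mitotic members and -0.36 for pairs across the sets. Without the 2 libraries these were 0.72, 0.42 and -0.05, so the negative value between the sets was near 0 once that pair was left out. Counts of members called are therefore not counts of independent genes.

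With the 2 libraries left out, 8 of 26 mitotic members were lower against Renilla (30.8%) and 0 higher. Of all genes, 7.07% were lower and 11.0% higher. Below 0 lay 24 of 26 mitotic members and 6471 of the 11550 genes. The mitotic median was -0.26, beside -0.03 for all genes. Of the 29 replication members, 3 were higher (10.3%), near the share of all genes, and 1 was lower, with a median of 0.04. Against mock, where 9.95% of all genes were higher and 6.31% lower, 11 of 26 mitotic members were lower and 0 higher, with a median of -0.26; 2 of 29 replication members were higher and 1 lower, with a median of 0.07. In the same 10 guide libraries the monocyte marker sum was above, and the granule marker sum below, that of every control; their part in these counts was not tested. Both libraries left out were numbered 3, so e12.3 and e21.1 kept numbers 1 and 2, while the other groups kept all 3. The replication mean was lowest in number 3 in 6 of 6 groups, and these fits did not adjust for the number. Mock against Renilla again called 0 members and 0% of all genes by limma-trend. There, 0 replication and 0 mitotic members and 264 of the 11550 genes had an unadjusted p under 0.05. The 12 calls against Renilla fell to 4 without Renilla replicate 1 and to 5 without Renilla replicate 3. The 14 against mock fell to 7 without mock replicate 1, to 2 without mock replicate 3, and to 7, 9 and 8 without e12.3 replicate 2, e12.4 replicate 2 or e21.1 replicate 1.

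The mitotic members that fell with the pair left out were Cdc20, Ube2c, Plk1, Cenpa, Cenpe, Aurka, Cdc25c and Ccnb1. Cdc20 is the activator through which the anaphase-promoting complex finds cyclin B and securin, and the gene lies at chr4:118432901-118437352. Cdc20 stood at 56.7, 47.4 and 52.2 FPKM in the 3 Renilla libraries, 45.5, 47.8 and 55.7 in mock, 33.0, 36.8 and 63.7 in e12.3, 37.5, 33.7 and 35.7 in e12.4, 32.7, 38.0 and 36.2 in e20.1 and 32.3, 34.0 and 61.3 in e21.1. The 10 guide libraries lay at 32.3 to 38.0 FPKM, all below the 6 controls, and the 2 others lay above every control. Cdc20 differed by -0.42 with all libraries (SE 0.18; limma-trend adjusted p = 0.157) and fell by 0.57 without the pair (SE 0.08; limma-trend adjusted p = 0.000136). Leaving out e12.3 replicate 3 or e21.1 replicate 3 alone also brought Cdc20 past the threshold. Among 13 further fits that each left out 1 more library, it was called in 13 against Renilla and in 13 against mock.

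Ube2c is the ubiquitin-conjugating enzyme that starts chains for the anaphase-promoting complex. The Ube2c values, replicates 1 to 3 in order, were 88.1, 80.1 and 94.3 FPKM in Renilla, 75.1, 82.0 and 106 in mock, 58.0, 61.8 and 179.9 in e12.3, 66.4, 55.6 and 68.2 in e12.4, 54.4, 82.2 and 67.1 in e20.1 and 55.1, 56.4 and 179 in e21.1. The 2 libraries lay far above all others, and of the remaining guide libraries e20.1 replicate 2 overlapped the controls. Ube2c differed by -0.23 with all libraries (SE 0.33; limma-trend adjusted p = 0.719) and fell by 0.50 without the pair (SE 0.12; limma-trend adjusted p = 0.00976); it was not called without Renilla replicate 3 as well.

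Plk1, the polo-like kinase that drives mitotic entry and centrosome maturation, also had its highest values in the pair. In Renilla the 3 libraries had 36.5, 26.8 and 31.6 FPKM of Plk1 and in mock 30.6, 27.3 and 35.3; the guide libraries had 24.3, 22.2 and 42.5 for e12.3, 24.8, 21.5 and 23.8 for e12.4, 24.8, 21.7 and 25.1 for e20.1 and 22.5, 21.4 and 41.6 for e21.1. All 10 guide libraries lay below all 6 controls, and the pair above them. Plk1 differed by -0.28 with all libraries (SE 0.19; limma-trend adjusted p = 0.387) and fell by 0.43 without the pair (SE 0.09; limma-trend adjusted p = 0.00616), a call kept in 13 of 13 further fits against Renilla and 12 of 13 against mock, lost there without mock replicate 3. Its partner Aurka, which activates Plk1 and shapes the spindle poles, had a like order of libraries. Aurka stood at 77.1, 57.3 and 60.8 FPKM in the 3 Renilla libraries, 67.2, 62.5 and 75.2 in mock, 54.7, 48.8 and 90.5 in e12.3, 53.3, 43.5 and 49.8 in e12.4, 50.3, 52.9 and 52.5 in e20.1 and 50.5, 48.8 and 82.7 in e21.1. Again the 10 guide libraries, at 43.5 to 54.7 FPKM, did not reach the controls. Aurka differed by -0.22 with all libraries (SE 0.17; limma-trend adjusted p = 0.46) and fell by 0.35 against Renilla without the pair (SE 0.09; limma-trend adjusted p = 0.0159), and was not called without Renilla replicate 1 as well.

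Ccnb1 is cyclin B1, the partner of Cdk1, and Cdc25c is the phosphatase that switches that kinase on. The Ccnb1 values, replicates 1 to 3 in order, were 108, 96.7 and 101 FPKM in Renilla, 105, 98.6 and 109.6 in mock, 92.8, 82.8 and 133 in e12.3, 99.97, 81.1 and 81.8 in e12.4, 88.1, 69.0 and 89.3 in e20.1 and 78.5, 74.4 and 125 in e21.1. In Ccnb1 only e12.4 replicate 1 of the 10 guide libraries reached the controls. Ccnb1 differed by -0.18 with all libraries (SE 0.15; limma-trend adjusted p = 0.503) and fell by 0.29 without the pair (SE 0.09; limma-trend adjusted p = 0.0365), a call kept in 5 of 13 further fits. Cdc25c was at 8.56 to 11.3 FPKM in the controls, 6.56 to 9.73 in the 10 guide libraries, and 11.9 and 11.96 in the other 2. Cdc25c differed by -0.22 with all libraries (SE 0.15; limma-trend adjusted p = 0.41) and fell by 0.33 without the pair (SE 0.10; limma-trend adjusted p = 0.0357), kept in 7 of 13. Cdk1 itself was not called: it lay at 149 to 173 FPKM in the controls and 143 to 165 in all 12 guide libraries, a difference of -0.07 without the pair (SE 0.06; limma-trend adjusted p = 0.445). Ccnb2 differed by -0.27 (limma-trend adjusted p = 0.0791) and Ccna2, the cyclin of S phase and G2, by 0.00 (limma-trend adjusted p = 0.992).

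At the kinetochore and centromere, Cenpa, the histone H3 variant of centromeric chromatin, lay at 66.0 to 87.7 FPKM in the controls, 56.1 to 74.1 in the 10 guide libraries, and 103 and 121 in the other 2. Cenpa differed by -0.22 with all libraries (SE 0.19; limma-trend adjusted p = 0.541) and fell by 0.36 without the pair (SE 0.09; limma-trend adjusted p = 0.0165), but was not called when Renilla replicate 1 was left out too. Against mock without the pair its difference was -0.28 and was not called (limma-trend adjusted p = 0.0592). Cenpe fell by 0.36 in the same fit (SE 0.10; limma-trend adjusted p = 0.0218), which did not hold when Renilla replicate 1 or 3 was left out. Ndc80, which grips microtubules, differed by 0.04 (limma-trend adjusted p = 0.809). Ttk, also called Mps1, starts the spindle checkpoint. In Renilla the 3 libraries had 22.2, 22.3 and 21.8 FPKM of Ttk and in mock 22.1, 21.7 and 22.7; the guide libraries had 20.7, 19.5 and 20.8 for e12.3, 20.9, 19.7 and 21.4 for e12.4, 19.2, 17.2 and 19.8 for e20.1 and 18.5, 21.6 and 21.0 for e21.1. The Ttk range was narrow, and each of the 12 guide libraries lay below each of the 6 controls. Ttk differed by -0.14 with all libraries (SE 0.06; limma-trend adjusted p = 0.182) and did not pass the test in either fit. The checkpoint kinase Bub1 differed by -0.22 without the pair (limma-trend adjusted p = 0.247).

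**Figure D3:**
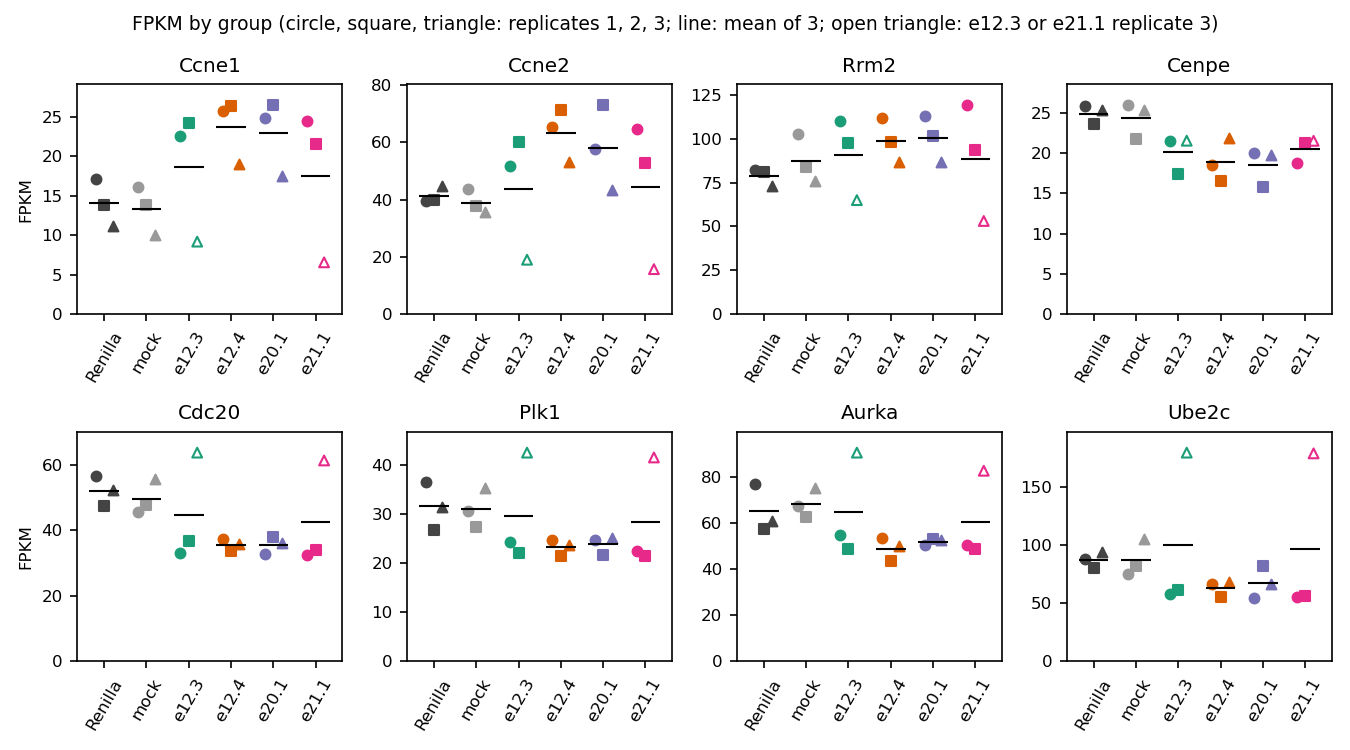
FPKM (y, from 0) of 8 members by group (x); points are libraries, shapes replicates and lines the means of 3, with open triangles for the pair that stood apart. Those open points are lowest in Ccne1 and Ccne2 and highest in Cdc20, Plk1, Aurka and Ube2c, but lie with the other guide libraries in Cenpe.

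The motors Kif20a and Kif11 and the spindle factors Tpx2 and Birc5 gave no call against Renilla in either fit. Kif20a, a kinesin of the cleavage furrow, was at 30.3 to 36.4 FPKM in the controls and 27.2 to 32.3 in all 12 guide libraries, and differed by -0.18 (SE 0.07; limma-trend adjusted p = 0.0962) with all libraries. Tpx2, which activates Aurka on the spindle, was at 56.3 to 69.0 FPKM in the controls and 41.1 to 66.2 in the guide libraries, a difference of -0.22 (SE 0.10; limma-trend adjusted p = 0.193). Kif11, the motor that pushes spindle poles apart, was at 63.1 to 73.5 and 48.8 to 66.7 FPKM and differed by -0.15 (SE 0.08; limma-trend adjusted p = 0.277). All 3 had overlapping groups. Birc5, the survivin subunit of the Aurora B complex, had 1 control library far above the rest: it was at 185 FPKM in Renilla replicate 1, 103 to 114 in the other 5 controls and 94.2 to 140.5 in the guide libraries. Its difference of -0.29 with all libraries (SE 0.14; limma-trend adjusted p = 0.233) was not called, and was -0.018 without Renilla replicate 1. Against mock without the pair, 7 of the 8 members lower against Renilla were called, Cenpa being the exception, and Kif11, Kif20a, Cenpf and Hmmr, the last a spindle-bound hyaluronan receptor, were also lower.

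Other mitotic members, among them Mki67, Top2a and Aurkb, were not called against Renilla in either fit. Mki67, the antigen Ki-67, lay at 74.3 to 91.9 FPKM in the controls and 63.5 to 97.7 in the guide libraries, and differed by 0.10 (SE 0.11; limma-trend adjusted p = 0.631) with all libraries and by 0.14 without the pair. Top2a, the topoisomerase that untangles sister chromatids, was at 246 to 326 FPKM and 214 to 269 and differed by -0.14 with all libraries and -0.13 without the pair (limma-trend adjusted p = 0.379 and 0.367). Aurkb, the kinase of the chromosomal passenger complex, differed by 0.00 with all libraries and by -0.04 without the pair.

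Of the replication members, the cyclins of the G1 to S step had the highest differences without the pair; with all libraries Rrm2 came between Ccne1 and Ccne2. Ccne1 and Ccne2 encode cyclin E, which with Cdk2 starts S phase, and Ccne1 lies at chr7:38097984-38107534. Ccne1 stood at 17.1, 13.8 and 11.2 FPKM in the 3 Renilla libraries, 16.04, 13.7 and 10.00 in mock, 22.5, 24.1 and 9.17 in e12.3, 25.7, 26.4 and 19.0 in e12.4, 24.8, 26.4 and 17.5 in e20.1 and 24.4, 21.5 and 6.55 in e21.1. The 10 guide libraries, at 17.5 to 26.4 FPKM, lay above all 6 controls, and the 2 others below all of them. Ccne1 differed by 0.45 with all libraries (SE 0.32; limma-trend adjusted p = 0.413) and rose by 0.70 without the pair (SE 0.16; limma-trend adjusted p = 0.00733). It was not called without Renilla replicate 3 as well, and was kept in 13 of 13 such fits against mock, where the difference was 0.78. In Renilla, mock, e12.4 and e20.1, Ccne1 in replicate 3 also lay below the mean of replicates 1 and 2. Those differences were -0.43, -0.53, -0.43 and -0.53. The Ccne2 values, replicates 1 to 3 in order, were 39.6, 39.8 and 44.9 FPKM in Renilla, 43.6, 37.6 and 35.7 in mock, 51.8, 60.3 and 19.0 in e12.3, 65.4, 71.5 and 53.0 in e12.4, 57.8, 72.9 and 43.3 in e20.1 and 64.8, 52.7 and 15.7 in e21.1. The Ccne2 order was alike, but e20.1 replicate 3 overlapped the controls. Ccne2 rose by 0.49 without the pair (SE 0.13; limma-trend adjusted p = 0.0224), which did not hold when Renilla replicate 1 or 2 was left out. With all libraries its difference was 0.21 (SE 0.34; limma-trend adjusted p = 0.762). Their upstream activator E2f1 differed by 0.02 with all libraries (SE 0.13; limma-trend adjusted p = 0.931) and by 0.06 without the pair.

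Among licensing factors, Cdt1, the MCM loader that is destroyed when S phase begins, went the other way from cyclin E. In Renilla the 3 libraries had 46.8, 46.8 and 52.8 FPKM of Cdt1 and in mock 46.7, 48.9 and 51.3; the guide libraries had 43.6, 38.8 and 52.2 for e12.3, 43.2, 42.7 and 43.7 for e12.4, 44.6, 48.0 and 41.6 for e20.1 and 41.8, 40.9 and 44.4 for e21.1. Of the 10 guide libraries only e20.1 replicate 2 reached the controls; of the pair, e12.3 replicate 3 lay within them and e21.1 replicate 3 below. Cdt1 differed by -0.15 with all libraries (SE 0.08; limma-trend adjusted p = 0.237) and fell by 0.19 without the pair (SE 0.06; limma-trend adjusted p = 0.0486), kept in 2 of 13 further fits. Cdc6, its partner in loading, lay at 28.5 to 39.8 FPKM in the controls and 23.5 to 45.1 in the guide libraries and differed by 0.17 without the pair (limma-trend adjusted p = 0.395). Differences of the helicase subunits Mcm2 to Mcm7 without the pair ran from -0.09 for Mcm7 to 0.15 for Mcm6, and those of Cdc45, Gins1 and Gins2 from -0.02 to 0.15, with no call. Mcm10, which helps open the helicase, was at 70.7 FPKM in Renilla replicate 1, 43.0 to 53.7 in the other 5 controls and 34.2 to 51.5 in the guide libraries, a difference of -0.24 with all libraries (SE 0.13; limma-trend adjusted p = 0.263) and of -0.042 without Renilla replicate 1.

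At the fork, Pold1, the catalytic subunit of the lagging-strand polymerase, was at 49.5 to 65.5 FPKM in the controls and 45.8 to 55.3 in the guide libraries, with overlap. Its difference was -0.18 with all libraries (SE 0.08; limma-trend adjusted p = 0.171), and it had the smallest p of the replication set. Pcna, the sliding clamp, lay at 303 to 454 FPKM in the controls and 255 to 582 in the guide libraries and differed by 0.15 (SE 0.20; limma-trend adjusted p = 0.692), or by 0.27 without the pair (SE 0.15; limma-trend adjusted p = 0.252). Fen1, the flap nuclease, and Chaf1a, a chaperone that places histones behind the fork, both had their highest value in Renilla replicate 1, 98.3 and 71.3 FPKM. The other 5 controls had 61.3 to 76.6 FPKM of Fen1 and 50.3 to 58.3 of Chaf1a, and the guide libraries 33.7 to 81.1 and 40.9 to 57.2. Neither was called: with all libraries the differences were -0.23 and -0.17 (limma-trend adjusted p = 0.559 and 0.38), and that of Fen1 was 0.042 with array quality weights. Rfc3, a clamp loader subunit, had 24.6 to 30.4 FPKM in the controls and 23.9 to 41.1 in the guide libraries, and differed by 0.17 without the pair (limma-trend adjusted p = 0.247).

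Nucleotide supply gave a single call. Rrm2, the regulated subunit of ribonucleotide reductase, is made in S phase. Rrm2 stood at 82.1, 81.2 and 72.8 FPKM in the 3 Renilla libraries, 103, 83.8 and 75.8 in mock, 110.0, 97.5 and 65.0 in e12.3, 112, 98.0 and 86.5 in e12.4, 113, 101 and 86.6 in e20.1 and 119, 93.6 and 53.1 in e21.1. The groups overlapped through mock replicate 1, and the pair lay below every other library. Rrm2 differed by 0.23 with all libraries (SE 0.19; limma-trend adjusted p = 0.501) and rose by 0.37 without the pair (SE 0.11; limma-trend adjusted p = 0.0364), kept in 6 of 13 further fits; against mock the difference was 0.23 and was not called (limma-trend adjusted p = 0.2). Its partner Rrm1 differed by -0.01 and thymidylate synthase, Tyms, by 0.04 without the pair (limma-trend adjusted p = 0.973 and 0.852).

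**Figure D4:**
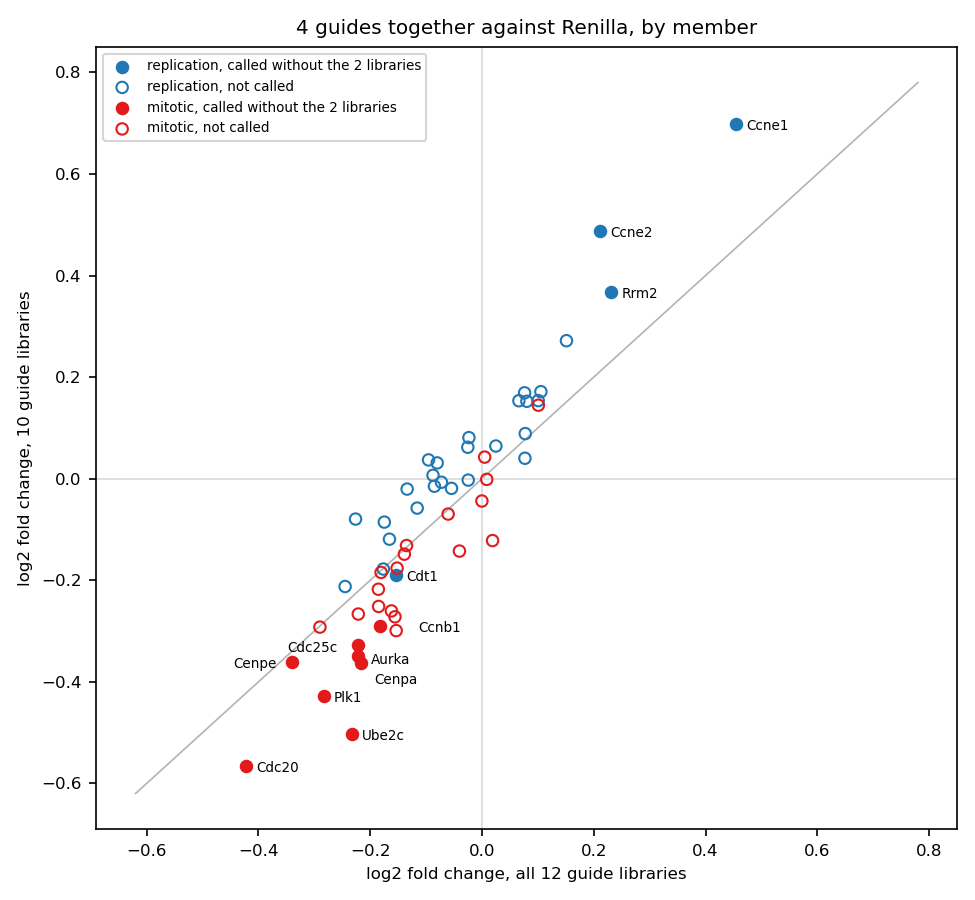
Each point is a member, with its log2 fold change of the 4 guides against Renilla over 12 guide libraries on x and over 10 guide libraries, without the pair, on y; filled points were called in the second fit and the line marks equal values. Most mitotic members lie below the line at negative values, and Ccne1, Ccne2 and Rrm2 lie above it at the upper right.

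The guides could also be read one at a time without the pair, with 2 libraries for e12.3 and for e21.1. Against Renilla, 1 of 26 mitotic members was lower for e12.3, 3 for e12.4, 2 for e20.1 and 4 for e21.1, where 1.09%, 4.55%, 3.58% and 2.96% of all genes were lower. Cdc20 was lower for each guide, by differences of -0.56, -0.53, -0.54 and -0.63. Plk1 and Aurka were lower for e12.4, Cenpe for e20.1, and Ccnb1, Plk1 and Ube2c for e21.1. Of the 29 replication members 0, 2, 1 and 0 were higher, where 5.05%, 8.80%, 7.59% and 7.80% of all genes were higher: Ccne1 and Ccne2 for e12.4 and Ccne1 for e20.1. Against mock 1, 3, 2 and 5 mitotic members were lower, where 0.918%, 4.11%, 3.46% and 2.44% of all genes were, and 0, 2, 1 and 1 replication members higher, where 4.78%, 8.15%, 7.13% and 7.06% were. Cdc20 was called for each guide there too, and Ccne1 for e12.4, e20.1 and e21.1.

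The guides were not shown to differ from each other. The limma-trend F-test across the 4 guides called 0 of 55 members and 0% of all genes with all libraries. Without the pair it called 0 members and 0.0260% of all genes. Its unadjusted p was under 0.05 for 0 members in either, and for 238 and 190 of the 11550 genes. Its smallest p among the members with all libraries was that of Bub1b, a spindle checkpoint kinase (limma-trend adjusted p = 0.985). The Bub1b values, replicates 1 to 3 in order, were 40.7, 37.0 and 46.9 FPKM in Renilla, 44.8, 36.7 and 45.2 in mock, 41.8, 36.6 and 49.3 in e12.3, 32.7, 28.8 and 35.04 in e12.4, 36.8, 23.0 and 35.5 in e20.1 and 34.0, 39.3 and 51.0 in e21.1. Bub1b was lower in e12.4 and e20.1 than in most other libraries, while e12.3 and e21.1 overlapped the controls.

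Counted without a model, Ttk was the only member whose 12 guide libraries all lay on one side of the 6 controls; 1.59% of all genes lay wholly below and 4.92% wholly above. Without the pair, 4 of 26 mitotic members lay below (Plk1, Aurka, Cdc20 and Ttk) and 1 of 29 replication members above (Ccne1), where 4.37% of all genes lay below and 7.34% above. By guide, without the pair, 11, 12, 7 and 18 of 26 mitotic members lay below all 6 controls, where 10.5%, 12.5%, 8.08% and 14.1% of all genes did. These counts rest on 2 libraries for e12.3 and e21.1 and on 3 for e12.4 and e20.1, so they do not rank the guides. Plk1, Aurka, Cdc20 and Ttk were among them for every guide. Of the 29 replication members 2, 2, 1 and 4 lay above, under the 12.1%, 13.7%, 9.68% and 15.1% of all genes.

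Other genes of the same phases, from lists chosen with earlier results known, are given here for comparison. With all libraries against Renilla, where 7.77% of all genes were higher and 3.21% lower, 0 of 40 other replication genes were called (0 higher, 0 lower by limma-trend, 2 at an unadjusted p under 0.05). Of all 11550 genes, 2816 had such a p against Renilla and 2455 against mock. Of 50 other mitotic genes, 0 were higher and 3 lower: Sgo1, the guardian of centromeric cohesion (-0.37; limma-trend adjusted p = 0.0148), Nek2, a centrosome kinase (-0.39; 0.0179), and Ncapg, a condensin subunit (-0.26; 0.0187). Against mock with all libraries, 0 of the 50 were called (7 at an unadjusted p under 0.05 by limma-trend), so none of these 3 was, and 2 of 40 other replication genes were lower, the origin recognition subunits Orc2 and Orc3 (-0.37 and -0.33; limma-trend adjusted p = 0.0493 and 0.0363). Without the pair against Renilla, 1 of the 50 was higher (2%) and 7 lower (14%), beside 11.0% and 7.07% of all genes, with a median of -0.12 and 43 of 50 below 0. Against mock without the pair 3 of 50 were lower (6%), near the 6.31% of all genes, and 0 higher. Of the 40 other replication genes, 1 was higher (Rpa1) and 1 lower (Dbf4) against Renilla without the pair, and Orc2 and Orc3 were lower against mock. Without the pair, 7 of 32 cell-cycle regulators tested were higher (21.9%) and 3 lower (9.38%) against Renilla, beside 11.0% and 7.07% of all genes. Against mock 6 were higher (18.8%) and 3 lower (9.38%), beside 9.95% and 6.31%. With all libraries, 5 were higher (15.6%) and 3 lower (9.38%) against Renilla, beside 7.77% and 3.21% of all genes. Against mock 4 were higher (12.5%) and 2 lower (6.25%), beside 6.84% and 2.16%. Cdkn1a, the inhibitor p21, rose most in log2 terms among the 5, by 0.89 (SE 0.10; limma-trend adjusted p = 2.45e-05), from 70.5 ± 5.8 FPKM (SD, n = 3) in Renilla to 132.4 ± 18.3 (SD, n = 12) in the guide libraries. Ccnd3, a D-type cyclin, rose by 0.51, and Wee1, the kinase that holds Cdk1 off, fell by 0.36 (limma-trend adjusted p = 4.84e-05 and 0.00491). Unlike Cdc20 and Ccne1, Cdkn1a and Ccnd3 were higher than in every control in all 12 guide libraries, the pair included. Transcription factors of the 2 programmes were not called: Foxm1 differed by -0.20, Mybl2, which encodes B-Myb, by 0.00, Myc by -0.04 and the inhibitor Cdkn1b by 0.36 (limma-trend adjusted p = 0.505, 0.995, 0.881 and 0.12). Without Renilla replicate 1 the Cdkn1b difference was 0.12.

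The motif content of the mitotic members did not separate those that fell. A CHR match stood in 5 of the 7 members with a promoter that were lower without the pair, and in 12 of the 14 that were not called. CCAAT stood in 7 of the 7 and in 11 of the 14, and an E2F match in 0 and 1. Of the 3 replication members that were higher, the 2 with an entry, Ccne1 and Rrm2, held no E2F match in the window, whereas Cdt1, which was lower, held 1. Among the 21 uncalled replication members with an entry, 10 held one.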

How the data were processed

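RNA of 18 libraries (6 groups of 3) was measured. The authors deposited a table of FPKM values per gene symbol; bcl2fastq 2.22.0.422, Salmon 0.13.0, R 3.5.3, DESeq2 1.22.1 and the build mm10 are named in the submitters' processing notes, with roles and annotation not given in the sources used here. Values were used as log2(FPKM + 1) for the 11550 genes whose mean reached 1 FPKM, and fitted with limma 3.58.1 (R 4.3.3; lmFit, eBayes with a trend) on the 6 group means, with p-values adjusted over all 11550 genes. The method was tested on simulated data with independent noise for each gene. That simulation held no libraries that stand apart, no shift by replicate number and no correlated genes, so it does not cover these features of the data. A fold change on this scale understates that of low genes. Depth was estimated from 1473 genes with 1 transcript, where 88.3% to 93.7% of low values lay within 10% of whole reads (20% if spread evenly); these reads were not used for a count test. The members, lists and the 2 libraries left out were chosen with earlier results of these data known. Values in every library or as ranges are given for the 7 members per set with the smallest p for the 4 guides against Renilla, for the 3 per set with the smallest p between guides, and for members called in a single guide; members called only without the 2 libraries, and others described by role, were named after their values were seen. Promoter letters came from RefSeq (GRCm38.p6) and gene positions from GENCODE (GRCm38). Alternatives were another pseudocount, other filters, only the groups compared, a replicate block, upper-quartile scaling, array quality weights, other controls or guides, and leaving out libraries.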

Additional observations from a re-analysis of the deposited data

How the results depend on the processing

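Of the values that answer a comparison, 362 under alternatives stayed within their limits and 57 moved, all of them counts of members called or 1 median. A count stayed if equal or, where neither was 0, within a factor of 1.5. Set medians, 181 of the 362, stayed if they moved by less than the SD of the set mean over the Renilla libraries. That SD was 0.213 for replication and 0.108 for mitotic members. The replication limit is wide beside its medians, so staying within it does not fix their sign. The counts with all libraries, for the 4 guides against Renilla, went from 1 to 0 with no filter on low values, 0 with only the groups compared, 3 with Renilla and mock together as control, 0 without guide e12.4, 19 with array quality weights and 12 without the pair. Against mock they went from 0 to 1 with no filter, 1 with at least 5 FPKM in 3 libraries, 1 with upper-quartile scaling (also 1 for e21.1 against mock), 24 with weights and 14 without the pair. With only the groups compared, e12.4 gave 3 against Renilla and 8 against mock. For the guides singly, in the order e12.3, e12.4, e20.1, e21.1, array quality weights gave 2, 9, 12 and 3 against Renilla and 1, 19, 12 and 9 against mock, and leaving out the pair gave 1, 5, 3 and 4, and 1, 5, 3 and 6. Weights on top of leaving out the pair gave 21 against Renilla, with a mitotic median of -0.14, and 25 against mock. The cause of these moves was not tested.

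Leaving out 1 library at a time gave 0 to 2 members called against Renilla and 0 to 1 against mock for the 4 guides together, and 0 to 1 for e12.4 against Renilla. With the pair left out as well, it gave 4 to 14 against Renilla and 2 to 15 against mock.

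Among the genes whose direction was followed, it reversed in Fen1, Chaf1a, Mybl2 and E2f1, none of which was called in the fits reported. The replication median against Renilla changed sign as well. It was -0.03 with all libraries and 0.04 without the pair, and ran from -0.10 to 0.095 when 1 library was left out. With array quality weights Fen1 went from -0.23 to 0.042; Mybl2 was at -0.027 without the pair, -0.028 with both controls together, -0.060 without guide e12.3 and -0.028 without guide e21.1. With weights and the pair left out, Chaf1a went from -0.12 to 0.0034, Fen1 from -0.080 to 0.061 and Mybl2 from -0.027 to 0.091. Leaving out 1 library, Mybl2 ranged from -0.076 to 0.12 and E2f1 from -0.086 to 0.20; with the pair out too, Chaf1a ranged from -0.21 to 0.029, Fen1 from -0.21 to 0.12, Mybl2 from -0.11 to 0.088 and E2f1 from -0.047 to 0.24.

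A replicate block gave 3 members called against Renilla (1 without it) and 5 against mock (0 without it); for e12.4, e20.1 and e21.1 it gave 1, 2 and 1 against Renilla and 3, 4 and 1 against mock. Same-numbered libraries correlated above 0.1 in 26 of 45 pairs (-0.25 to 0.76), so not every pair passed and the numbers were not taken to pair the libraries. Yet 17 of 18 libraries correlated best with their own number, a hint from the data, not the design, that the number marks something shared. With 3 libraries a group, and 2 for e12.3 and e21.1 without the pair, small differences are beyond what these data can call.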

Other observations

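The replication set also differed by replicate number. In 6 of 6 groups, controls included, its mean was highest in the library numbered 1 (0.12 to 0.24 against the Renilla mean on the log2 scale) and lowest in the library numbered 3 (-0.52 to -0.13). The mitotic set had another and less uniform order: its mean was highest in number 3 in 4 of 6 groups and in number 1 in 2 of 6, and lowest in number 2 in 5 of 6. In groups without a library that stood apart, replication members fell below both other libraries of their group in replicate 3 in 20 of 29 cases for Renilla, 27 for mock, 27 for e12.4 and 25 for e20.1. The share of all genes that did so was not counted. The median difference of replicate 3 from the other 2 libraries was -0.26 in Renilla, -0.25 in mock, -0.29 in e12.4 and -0.30 in e20.1, near the -0.33 of e12.3, and -0.58 in e21.1. What distinguishes the cyclin E genes in the pair is the size: Ccne2 lay 1.51 and 1.83 log2 units below there (-1.51 and -1.83), while in Renilla replicate 3 it was the highest replication member (0.18). The labels do not say what a replicate number stands for.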
